A study of Mus musculus with 28 samples.

Results

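The Bcl2 family controls whether the outer mitochondrial membrane stays intact. Here 10 of its genes were followed in the tibialis anterior (TA), a shin muscle made almost wholly of fast-twitch fibers. The muscle came from mice with both mitofusin genes deleted in fast-twitch fibers and from their littermates. The genes were taken by symbol: the effectors *Bax* and *Bak1*, the BH3-only genes *Bid*, *Bbc3*, *Pmaip1* and *Bcl2l11*, the anti-apoptotic genes *Bcl2*, *Bcl2l1* and *Mcl1*, and *Bcl2l13*. Of the 10, 9 had a row among the 12732 genes of the expression table and 7 of these passed a filter on low values, a mean of at least 0.5 over all libraries. *Bid* and *Bbc3* lay below the filter, and *Pmaip1* was not analysed here.

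RNA sequencing covered 14 *mfn1,2* and 14 wt mice, 1 library per mouse, with 4 mice of each genotype at 4, 6 and 8 weeks of age and 2 at 10 weeks. The *mfn1,2* mice carried Myl1-Cre, Mfn1 -/flox and Mfn2 -/flox, that is, a germline null and a floxed allele of each mitofusin gene, with the Cre driver active in fast-twitch fibers. The wt mice were Mfn1 +/flox and Mfn2 +/flox littermates, and no Cre is listed for them, so the presence of Cre and the loss of mitofusins cannot be told apart. Their floxed parent was mDendra flox/flox, so pups of both genotypes had a floxed allele of this mitochondrial reporter, and all mice ate standard chow. Cre, which acts on floxed alleles, is listed for *mfn1,2* alone, so any effect of the reporter allele after Cre cannot be told apart from the loss of mitofusins either. Whole muscle was used, including cells without Cre, and in whole muscle fewer cells of a type and less RNA per cell cannot be told apart. The columns of the table name the genotype and a running number but no age, so ages were pooled within each genotype.

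Values are the deposited normalized signal, which behaved like a measure per transcript length, put on a common scale by median-ratio factors, which set the typical gene level across libraries. Sequencing depth is unknown. The deleted genes were read first. *Mfn1* was at 8.15 to 18.6 in *mfn1,2* muscle, against 35.8 to 78.8 in wt muscle, without overlap. *Mfn2* was at 24.1 to 42.9 in *mfn1,2* and 39.7 to 57.1 in wt, with every *mfn1,2* library below the wt median. The reading of *Mfn2* depended on the scaling: as deposited, its median was 37.8 in *mfn1,2* and 35.9 in wt. *Mfn1* was lower without overlap as deposited too, at 11.1 to 21.6 in *mfn1,2* and 27.6 to 68.8 in wt. Before scaling, the libraries summed to 326643 to 419290 in *mfn1,2* and 426029 to 564123 in wt, and mitochondrially encoded RNA took 24.9 to 35.5% of the *mfn1,2* sums and 49.4 to 71.3% of the wt sums. In a clustering of the libraries the genotypes separated. Libraries were also clustered within each genotype, the tree was split once, and the smaller part is said to stand apart. These were 1 *mfn1,2* library (number 8) and 4 wt libraries (6, 8, 9 and 13). Such a split always sets some libraries apart, so it does not by itself show that they are unusual. Members are also given without these 5 where a call changed.

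BAX and BAK, the effectors, form pores in the outer mitochondrial membrane through which cytochrome c escapes to activate caspases. BCL-2, BCL-XL (from *Bcl2l1*) and MCL-1 hold them in check, and the BH3-only proteins, which are made or activated under stress, bind the guardians or the effectors and tip the balance. Mitofusins sit in the same membrane, where they join mitochondria to each other.

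A gene is said to have risen or fallen in *mfn1,2* muscle where limma, fitted over the 10819 genes that passed the filter, gave a Benjamini-Hochberg adjusted p under 0.01. By this rule *Bax*, *Bcl2l11* and *Bcl2l1* rose, no member fell, and *Bak1*, *Bcl2*, *Mcl1* and *Bcl2l13* did not pass. The count of 3 of 7 higher stands beside 28.2% of all tested genes that rose, and the count of 0 lower stands beside 24.9% that fell (53.2% in either direction). The median log2 fold change of the 7 was 0.08, and that of all tested genes was 0.03. In the same model fitted without the filter, *Bid* and *Bbc3* also rose, which makes 5 of 9 members higher, where 25.3% of all 12732 genes were higher and 25.1% lower. Among the 1913 genes below the filter, 9.41% were higher and 26.4% were lower. Genes of both camps were thus among those that rose: the log2 fold changes were 0.63 to 1.30 for the pro-apoptotic *Bax*, *Bcl2l11*, *Bid* and *Bbc3*, and 0.38 for the anti-apoptotic *Bcl2l1*. No member separated the genotypes entirely, whereas 6.15% of tested genes had all *mfn1,2* values above all wt values and 5.08% had all of them below.

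**Figure D1:**
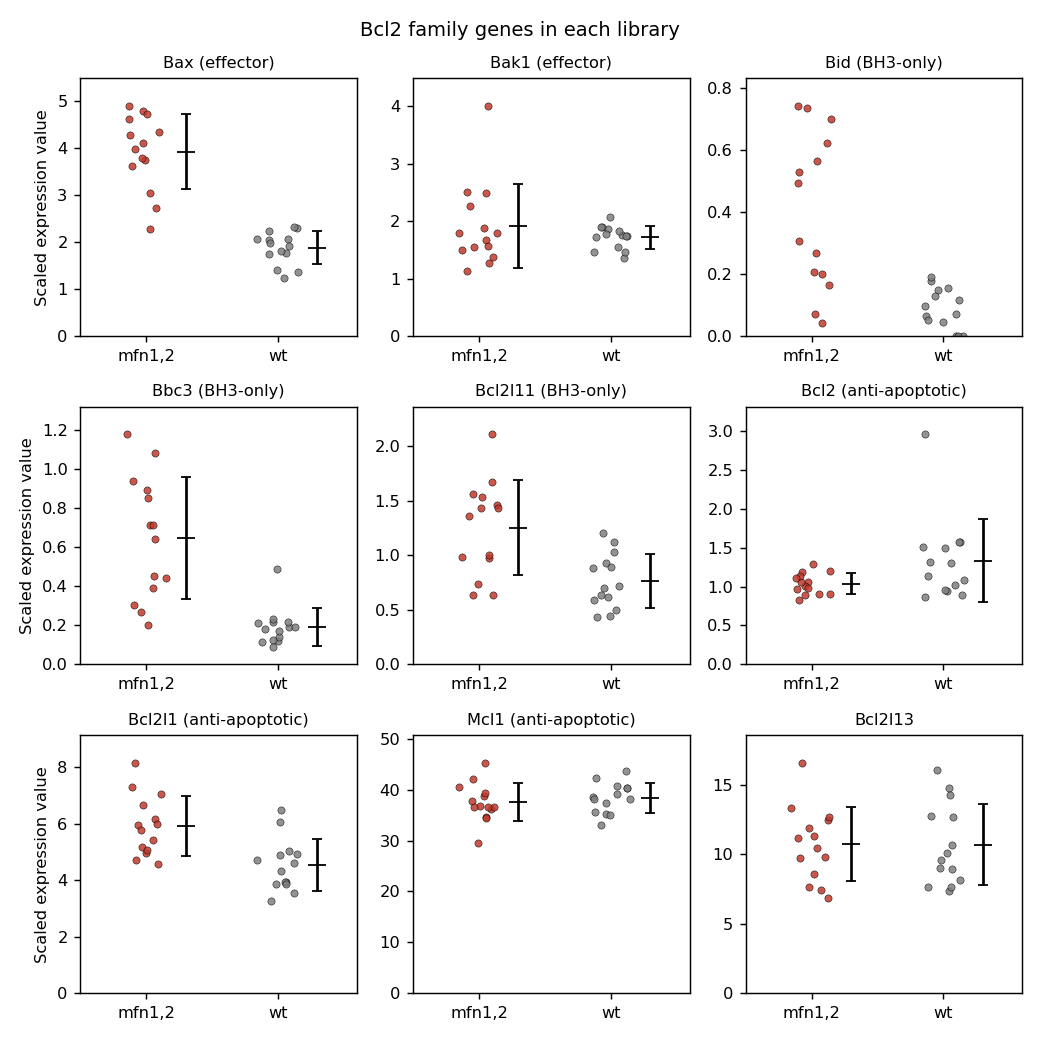
Scaled expression value (vertical axis, normalized signal, different range in each panel) of the 9 members in each of 14 *mfn1,2* libraries (red) and 14 wt libraries (gray), 1 point per mouse, with the mean and SD beside the points except for Bid, which is listed at 0 in 3 wt libraries. Bax points of *mfn1,2* lie between 2.28 and 4.90, almost all above the highest wt point of 2.33, while those of Mcl1 and Bcl2l13 largely overlap between genotypes.

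*Bax*, whose product moves from the cytosol into the outer membrane when activated, showed the clearest difference among the members. Its lowest, median and highest values were 2.28, 4.05 and 4.90 in *mfn1,2* muscle, against 1.24, 1.95 and 2.33 in wt muscle. Thus 13 of 14 *mfn1,2* libraries exceeded the highest wt library, and the exception was *mfn1,2* library 4. *Bax* averaged 3.93 ± 0.797 in *mfn1,2* and 1.88 ± 0.347 in wt (SD, n = 14 each), a difference of 1.02 on the log2 scale (SE 0.11, 95% interval 0.79 to 1.24, adjusted p = 3.37e-09). It was the sole member past the filter to meet the stricter rule of a Bonferroni adjusted p under 0.01 with a log2 fold change over 1, which 6.02% of tested genes met in this direction and 5.12% in the other. In the limma fit without the filter *Bbc3* met this rule too (Bonferroni adjusted p = 0.00639), while *Bid* did not (0.333). The 250 bases before the RefSeq start of *Bax* (chr7:45466899-45467148, minus strand, build GRCm38.p6) are shown because this gene moved most clearly, with an E-box (CACGTG, the same on both strands), a core bound by basic helix-loop-helix factors such as MYC, in capitals.
Bax: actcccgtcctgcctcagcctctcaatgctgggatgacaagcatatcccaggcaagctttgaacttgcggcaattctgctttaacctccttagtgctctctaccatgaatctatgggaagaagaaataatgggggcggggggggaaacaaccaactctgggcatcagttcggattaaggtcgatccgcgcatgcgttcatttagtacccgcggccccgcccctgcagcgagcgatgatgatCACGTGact
The first base of the E-box lies 9 bases before the start, and 6.02% of all RefSeq promoter windows hold this hexamer. A match of letters is a description and says nothing of binding in these muscles.

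*Bak1*, the effector that resides in the outer membrane at all times, did not pass. Its values were 1.14, 1.74 and 4.00 (lowest, median, highest) in *mfn1,2* muscle and 1.36, 1.75 and 2.07 in wt muscle. The medians lay side by side, while the *mfn1,2* libraries spread more widely, with library 2 alone at 4.00. Its fold change was 0.08 on the log2 scale (SE 0.13, 95% interval -0.18 to 0.34, adjusted p = 0.584), and without *mfn1,2* library 2 it was -0.0017.

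The BH3-only genes were the lowest members in wt muscle, and each of the 3 that were measured was higher in *mfn1,2* muscle. *Bcl2l11* encodes BIM, which binds every anti-apoptotic guardian and is induced by FoxO factors and by CHOP in other cell types. It was at 0.638, 1.40 and 2.11 (lowest, median, highest) in *mfn1,2*, against 0.431, 0.711 and 1.21 in wt, and 8 of 14 *mfn1,2* libraries lay above all wt libraries. On the log2 scale *Bcl2l11* differed by 0.63 (SE 0.17, 95% interval 0.28 to 0.98, adjusted p = 0.00201). Without the 5 libraries that stood apart it was 0.49 with an adjusted p of 0.0265, so its call was lost, and 2 of 7 members were then higher and 0 lower, where 26.5% of tested genes were higher and 24.0% lower. A fit on fewer libraries also has less power.

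*Bbc3* encodes PUMA, a p53 target whose product also binds every guardian. It was at 0.201, 0.677 and 1.17 (lowest, median, highest) in *mfn1,2* muscle, against 0.0905, 0.185 and 0.489 in wt muscle. All 14 *mfn1,2* libraries lay above the wt median and 8 above the highest wt library, number 3, which was itself far above the other wt libraries. Its log2 fold change from the model without the filter was 1.28 (SE 0.20, adjusted p = 2.60e-06), and a two-sided permutation test of the means with 100000 resamples gave p = 4e-05, where the smallest it can give is 2e-05.

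*Bid* encodes the protein that caspase-8 cleaves to carry a death receptor signal to the mitochondrion. It was at 0.0416, 0.401 and 0.743 (lowest, median, highest) in *mfn1,2* muscle, against 0, 0.0830 and 0.192 in wt muscle. It was listed at 0 in wt libraries 2, 3 and 14. Libraries 2 and 3 had the highest shares of mitochondrially encoded RNA, 71.3% and 70.1%, and library 14 had 62.2%. Such a share leaves less signal for other genes, and its part in the low wt values of *Bid* and *Bbc3* was not tested. Of the *mfn1,2* libraries, 3 lay within the wt range and the other 11 above it, so the spread in *mfn1,2* was wide. The log2 fold change was 1.30 (SE 0.26, adjusted p = 9.00e-05 without the filter), and the permutation test gave p = 0.0001. On this scale the size of the change in so low a gene depends on the pseudocount of 0.1: it was 2.26 with 0.01 and 0.35 with 1, and the gene rose with each.

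Promoters of *Bbc3* and *Bcl2l11* are shown because both carry the FoxO core, TGTTTAC on either strand, and *Foxo3* also rose in *mfn1,2* muscle. Whether FoxO3 acts on either gene in these muscles was not tested. The *Bbc3* window is chr7:16310011-16310260, plus strand, the one of its 3 RefSeq starts that holds the core, and the *Bcl2l11* window is chr2:128125788-128126037, plus strand, the first of 2 starts (GRCm38.p6, 250 bases before the start, core in capitals).
Bbc3: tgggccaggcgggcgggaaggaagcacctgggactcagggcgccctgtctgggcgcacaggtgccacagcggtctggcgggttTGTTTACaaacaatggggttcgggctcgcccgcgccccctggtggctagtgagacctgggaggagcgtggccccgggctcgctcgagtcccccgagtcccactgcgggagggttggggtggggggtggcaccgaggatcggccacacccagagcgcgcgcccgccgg
Bcl2l11: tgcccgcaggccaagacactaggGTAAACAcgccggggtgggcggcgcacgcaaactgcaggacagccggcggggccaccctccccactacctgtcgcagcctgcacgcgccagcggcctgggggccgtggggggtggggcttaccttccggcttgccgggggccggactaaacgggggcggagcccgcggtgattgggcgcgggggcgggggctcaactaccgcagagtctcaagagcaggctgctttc
The core begins 167 bases before the *Bbc3* start and, read on the reverse strand as GTAAACA, 227 bases before the *Bcl2l11* start. Of 14 windows belonging to 9 members, these 2 held it, where 3.17% of all 32851 RefSeq windows did. The E-box stood in 2 of the 14 windows, of *Bax* and *Bbc3*. The C/EBP-ATF element TGATGNAA (3.45% of all windows) and the cAMP response element TGACGTCA (1.55%) were in none of the 14. The GC-box GGGCGG was in 10 of the 14, where 32.7% of all windows had it. All motifs were searched on both strands, none contains another, and they were chosen with the results known, so the counts are descriptions only.

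Among the guardians, *Bcl2l1* rose by a small amount. It encodes BCL-XL and, by alternative splicing, the short pro-apoptotic BCL-XS, which a value per gene does not separate. *Bcl2l1* was at 4.56, 5.87 and 8.16 (lowest, median, highest) in *mfn1,2* muscle, against 3.25, 4.48 and 6.50 in wt muscle. The genotypes overlapped broadly, with 4 of 14 *mfn1,2* libraries above all wt libraries, although all 14 were above the wt median. The log2 fold change was 0.38 (SE 0.10, 95% interval 0.18 to 0.59, adjusted p = 0.00117).

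*Bcl2*, the founding member of the family, did not pass. It was at 0.822, 1.03 and 1.28 (lowest, median, highest) in *mfn1,2* muscle, against 0.863, 1.22 and 2.95 in wt muscle. Of the *mfn1,2* libraries, 13 of 14 were below the wt median, but only 1 was below all wt libraries, and wt library 14, at 2.95, was far above the others. The log2 fold change was -0.27 (SE 0.13, 95% interval -0.53 to -0.010, adjusted p = 0.0643), and without wt library 14 it was -0.18 (adjusted p = 0.116).

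*Mcl1*, a short-lived guardian that muscle and heart are known to need for healthy mitochondria, was by far the highest expressed member. Its values were 29.5, 36.8 and 45.3 (lowest, median, highest) in *mfn1,2* muscle and 33.2, 38.4 and 43.7 in wt muscle. Both genotypes covered nearly the same range, and the log2 fold change was -0.04 (SE 0.06, 95% interval -0.15 to 0.08, adjusted p = 0.582). This was the narrowest interval of all members. *Bcl2l13*, which encodes an outer membrane receptor for mitophagy rather than a classical death regulator, was at 6.82, 10.8 and 16.6 in *mfn1,2* muscle and 7.39, 9.84 and 16.1 in wt muscle. Its log2 fold change of 0.01 (SE 0.13, 95% interval -0.26 to 0.28, adjusted p = 0.954) had no stable sign when single libraries were left out.

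Because the values behaved as a measure per transcript length, levels of the scaled signal can be ordered across genes within a genotype. By medians the order in wt muscle was *Mcl1* (38.4), *Bcl2l13* (9.84), *Bcl2l1* (4.48), *Bax* (1.95), *Bak1* (1.75), *Bcl2* (1.22), *Bcl2l11* (0.711), *Bbc3* (0.185) and *Bid* (0.0830). In wt, the steps down to *Bax* were without overlap between neighbors, while each later pair of neighbors overlapped, and *Bax* exceeded *Bak1* in 9 of 14 wt libraries. In *mfn1,2* muscle *Bax* exceeded *Bak1* in 13 of 14 libraries. In *mfn1,2* the order was the same except that *Bcl2l11* (1.40) stood above *Bcl2* (1.03): *Bcl2* exceeded *Bcl2l11* in 5 of 14 *mfn1,2* libraries, against 13 of 14 wt libraries. Only *Mcl1* and *Bcl2l13* were neighbors without overlap in *mfn1,2*. *Mcl1* was above the other 8 members in every library.

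No library held the extremes of most members, although some recurred. In *mfn1,2*, library 4 was the lowest for 3 members (*Bax*, *Bbc3* and *Bcl2*), library 6 for 2 (*Bid* and *Mcl1*), and no library was the highest for more than 1. In wt, libraries 9, 11 and 14 were each the highest for 2 members. Library 6 of *mfn1,2* joined the lowest *Bid* (0.0416) to the highest *Bbc3* (1.17), so the 2 genes did not move together there.

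A ratio of members within a library does not depend on how libraries were scaled, so effectors were set over each guardian. *Bax* over *Bcl2* had a median of 3.82 (range 2.77 to 5.25) in *mfn1,2* muscle, against 1.52 (0.648 to 2.62) in wt muscle. The genotypes did not overlap in this ratio. Over *Bcl2*, 4.1% of the 10818 other tested genes, *Bax* among them, lay wholly higher. *Bax* over *Mcl1* had a median of 0.0977 (0.0588 to 0.163) in *mfn1,2*, against 0.0504 (0.0324 to 0.0619) in wt, with 13 of 14 *mfn1,2* libraries above all wt libraries. *Bax* over *Bcl2l1* had a median of 0.663 (0.415 to 1.04) in *mfn1,2*, against 0.446 (0.233 to 0.655) in wt, with 7 of 14 above all wt. Over *Mcl1* 5.99% of all tested genes but *Mcl1* lay wholly higher, and over *Bcl2l1* 1.61% of all but *Bcl2l1* did. In terms of medians, these ratios were 2.52, 1.94 and 1.49 times as high in *mfn1,2* as in wt, and 2.22, 1.87 and 1.48 times without the 5 libraries that stood apart.

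*Bak1* over the guardians gave another picture. Its medians were 1.64 in *mfn1,2* and 1.56 in wt over *Bcl2*, and 0.0485 in *mfn1,2* and 0.0459 in wt over *Mcl1*, with broad overlap. Over *Bcl2l1* the median was 0.316 (0.185 to 0.567) in *mfn1,2*, against 0.411 (0.287 to 0.515) in wt, so here the ratio was lower in *mfn1,2*, with overlap. These ratios are of transcript levels per length and carry no test.

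**Figure D2:**
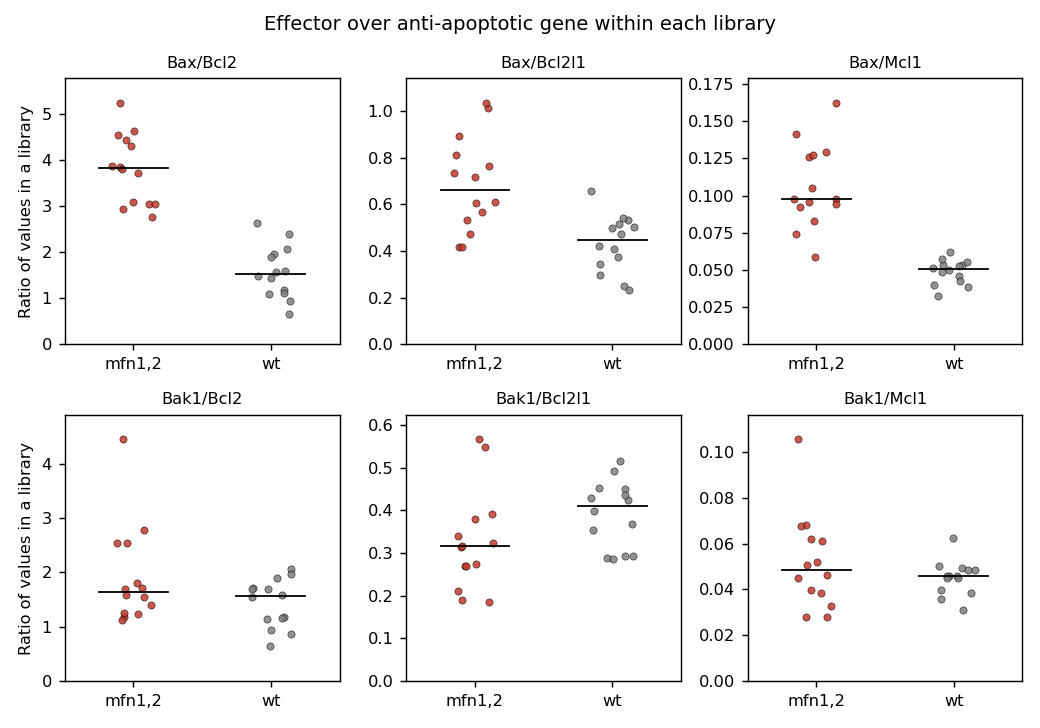
Ratio of an effector to an anti-apoptotic gene in the same library (vertical axis, no unit) for 14 *mfn1,2* libraries (red) and 14 wt libraries (gray), 1 point per mouse, with the median as a line. Every *mfn1,2* point of Bax over Bcl2 lies above 2.62, the highest wt point, while the Bak1 ratios in the lower row overlap.

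The size and, for some members, the sign of a change depended on the scaling. With the values as deposited, the median log2 fold change of all tested genes was 0.64, with all libraries set to the same sum it was 1.04, with the same sum after leaving out mitochondrially encoded genes it was 0.16, and with *Actb* as reference it was 0.83. As deposited, 6 of 7 tested members were higher, where 62.3% of all genes were higher and 4.95% lower in *mfn1,2*. With the same sum 8 of 8 were higher (79.1% of all genes higher, 2.6% lower) and with *Actb* 7 of 8 (65.8% and 3.36%). Both counts include *Bbc3*, which passed the filter there through its *mfn1,2* values. Its highest wt value was 0.489 with the median-ratio scaling, so its place in these counts is no support. With the same sum after leaving out mitochondrially encoded genes 3 of 7 were higher (34.9% and 16.6%), as were 3 of 7 with the upper quartile (24.4% and 28.1%). No member was lower under any of these scalings. With the values as deposited, *Bak1* (log2 fold change 0.68), *Mcl1* (0.60) and *Bcl2l13* (0.64) lay close to the median of all genes, *Bcl2* (0.31) below it, and *Bax* (1.63), *Bcl2l11* (1.20) and *Bcl2l1* (1.01) above it. *Actb* itself was not level between genotypes: after the median-ratio scaling used here it averaged 43.7 ± 9.62 in *mfn1,2* and 83.5 ± 42.6 in wt. *Bax* had the largest log2 fold change under each of these scalings among the 7 members that passed the filter in all of them.

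**Figure D3:**
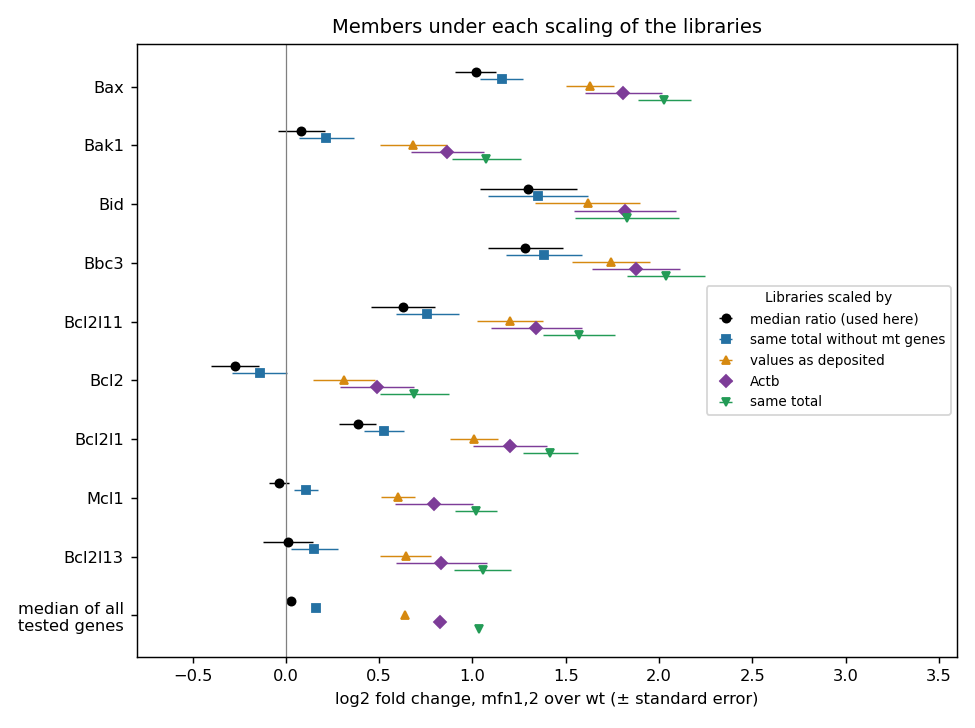
Log2 fold change of *mfn1,2* over wt (horizontal axis) of the 9 members, with standard errors as lines, under 5 scalings of the libraries given by color and symbol, and the median of all tested genes in the lowest line. From one scaling to the next the members shift together with the median of all genes, which runs from 0.03 to 1.04.

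The other cell death genes were read from 4 lists, in which 30 genes were tested: 7 rose, 7 fell and 16 did not pass, where 28.2% of all tested genes rose and 24.9% fell. Their median log2 fold change was 0.07. These counts move with the scaling as those of all genes do: as deposited, 23 rose and 0 fell, where 62.3% of all genes rose and 4.95% fell. Of 15 further Bcl2 family genes, 6 had a row and 5 were tested, of which limma called 0 in either direction, and 1, *Bnip3*, had an unadjusted p under 0.05. *Bnip3*, a mitophagy receptor induced by hypoxia, averaged 27.4 ± 4.63 in *mfn1,2* and 33.6 ± 6.68 in wt (SD, n = 14 each), with an adjusted p of 0.0185. The BH3-only gene *Bad* (log2 fold change 0.10, 95% interval -0.13 to 0.32) and the guardian *Bcl2l2*, which encodes BCL-W (-0.06, interval -0.36 to 0.24), did not pass. *Bmf*, a BH3-only gene below the filter, stood at a log2 difference of -0.72 (adjusted p = 0.0222 without the filter), the opposite sign to that of the other low BH3-only genes *Bid* and *Bbc3*.

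Downstream of the membrane, the list of caspases with their mitochondrial activators and inhibitors held 17 genes, 15 of them tested, with a median log2 fold change of -0.28. Here 3 rose, 6 fell and 6 did not pass, where 28.2% of all tested genes rose and 24.9% fell, with a median of 0.03. The 3 that rose were *Casp6*, an executioner caspase, and *Htra2* and *Diablo*, whose products leave the intermembrane space to relieve the inhibition of caspases. *Diablo* averaged 10.5 ± 1.31 in *mfn1,2* and 7.65 ± 0.809 in wt, with 12 of 14 *mfn1,2* libraries above all wt libraries (log2 fold change 0.45, adjusted p = 1.03e-06). *Htra2* averaged 1.81 ± 0.362 in *mfn1,2* and 1.18 ± 0.287 in wt (0.59, adjusted p = 8.10e-05). *Casp6* averaged 1.48 ± 0.722 in *mfn1,2* and 0.830 ± 0.353 in wt (0.69, adjusted p = 0.00484). Without the 5 libraries that stood apart its call was lost (0.56, adjusted p = 0.0449), in a fit that also has less power.

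The largest fall in that list was that of *Casp8*, the initiator caspase of death receptors that cleaves BID. *Casp8* was at 0.771, 1.02 and 2.02 (lowest, median, highest) in *mfn1,2* muscle, against 1.23, 1.99 and 2.73 in wt muscle, a log2 difference of -0.77 (adjusted p = 8.39e-06). *Casp8* was thus lower, while *Bid* was higher, in *mfn1,2* muscle, and with libraries set to the same sum the sign of *Casp8* turned (0.21). The other 5 that fell were cytochrome c (*Cycs*), the caspase-8 inhibitor *Cflar* and the inhibitors of apoptosis *Xiap*, *Birc3* and *Birc6*. Their log2 fold changes ran from -0.56 for *Birc3* to -0.33 for *Cflar*. *Cycs* averaged 52.9 ± 4.62 in *mfn1,2* and 72.7 ± 14.7 in wt (-0.44, adjusted p = 6.80e-05), and turned to 0.20 as deposited. The apoptosome scaffold *Apaf1* (0.37, 95% interval -0.03 to 0.78) did not pass, and *Casp9* and *Birc5* lay below the filter.

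Of the transcription factors known to activate BH3-only genes, 6 of 8 were tested, and 3 rose, 1 fell and 2 did not pass, with a median log2 fold change of 0.56. Among all tested genes 28.2% rose and 24.9% fell, and their median was 0.03. *Ddit3*, which encodes CHOP, was at 60.8, 86.3 and 140 (lowest, median, highest) in *mfn1,2* muscle, against 0.221, 3.64 and 10.2 in wt muscle, without overlap (log2 fold change 5.27, SE 0.44, adjusted p = 1.18e-11). *Atf4*, its activator in the integrated stress response, was at 30.0, 108 and 126 in *mfn1,2*, against 25.7, 32.8 and 37.2 in wt, with 12 of 14 *mfn1,2* libraries above all wt libraries (1.53, SE 0.17, adjusted p = 3.53e-09). *Foxo3*, a FoxO factor that activates *Bcl2l11* and *Bbc3* in other cell types, averaged 9.32 ± 1.49 in *mfn1,2* and 5.85 ± 1.22 in wt (0.67, adjusted p = 1.07e-06). *Jun*, an AP-1 subunit, fell, with 11.3 ± 4.39 in *mfn1,2* and 20.3 ± 5.10 in wt (-0.87, adjusted p = 3.19e-05), and turned to 0.18 with libraries set to the same sum.

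*Trp53*, which encodes p53, the activator of *Bax*, *Bbc3* and *Pmaip1*, did not pass. It was at 0.677, 1.56 and 2.63 (lowest, median, highest) in *mfn1,2* and 0.640, 1.26 and 2.01 in wt, a log2 difference of 0.31 (95% interval -0.07 to 0.69, adjusted p = 0.141). *Trp63*, which encodes the related p63, averaged 2.25 ± 1.14 in *mfn1,2* and 1.57 ± 0.583 in wt (0.44, adjusted p = 0.0729) and did not pass either. The *Trp53* mRNA level is not a measure of p53 activity, which is set mainly at the protein. Of the 4 genes that attach ubiquitin to MCL-1 or remove it, *March5*, a ligase of the outer mitochondrial membrane, rose, with 22.9 ± 3.06 in *mfn1,2* and 16.9 ± 3.40 in wt (log2 fold change 0.45, adjusted p = 1.99e-04). The ligases *Huwe1* (-0.18) and *Fbxw7* (0.19) and the deubiquitinase *Usp9x* (-0.16) did not pass. In this list 1 of 4 thus rose and 0 fell, beside 28.2% and 24.9% of all tested genes.

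**Figure D4:**
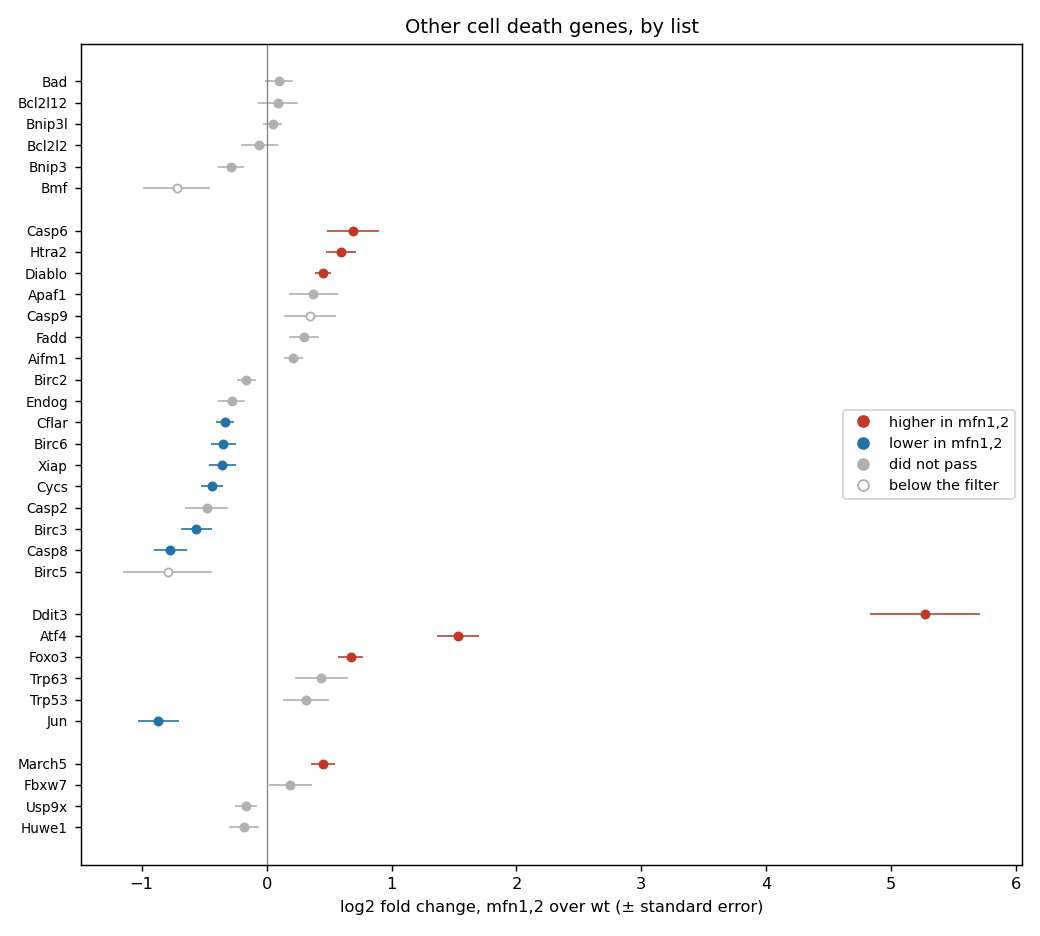
Log2 fold change of *mfn1,2* over wt (horizontal axis, lines are standard errors, n = 14 each) for the other cell death genes with a row, in 4 blocks from the top: further Bcl2 family genes, caspases with their activators and inhibitors, transcription activators of BH3-only genes, and genes that attach ubiquitin to MCL-1 or remove it. Filled red and blue points rose and fell, gray points did not pass, and open points were below the filter, all under the median-ratio scaling. Ddit3, at 5.27, lies far from all the others.

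Markers of fiber types and of other cells moved with genotype as well. Their counts are to be read beside all tested genes, of which 28.2% rose and 24.9% fell. Fast-twitch markers defined the tissue in both genotypes, with a summed level of 16304 to 29947 in *mfn1,2* and 16260 to 46780 in wt, and 6 of 8 fell while 1 rose. Slow-twitch markers rose in 4 of 5 (sum 36.7 to 231 in *mfn1,2*, 12.0 to 104 in wt). The authors typed the fibers of this muscle by immunostaining, a measure of protein, and reported no notable change. Of the regenerating fiber markers *Myh8* and *Myog* rose, 2 of 3 tested (sum 247 to 530 in *mfn1,2*, 13.6 to 290 in wt). *Myh3* did not pass (log2 fold change 0.35, adjusted p = 0.139). *Mymk*, below the filter, was listed at 0 in 8 *mfn1,2* and 10 wt libraries. The highest wt value of *Myh8*, 252, was in library 1. Endothelial markers fell in 6 of 7, with sums of 33.4 to 49.8 in *mfn1,2* and 51.6 to 96.2 in wt that did not overlap. Of single tested genes, 5.08% had all *mfn1,2* values below all wt values. Macrophage markers fell in 4 of 5 (4.23 to 14.6 in *mfn1,2*, 6.73 to 20.7 in wt), smooth muscle and pericyte markers in 3 of 4 (80.8 to 110 in *mfn1,2*, 105 to 157 in wt) and fibroblast markers in 2 of 6 (79.2 to 720 in *mfn1,2*, 174 to 1423 in wt). These counts depend on the scaling as well: with the values as deposited, where 62.3% of all genes rose and 4.95% fell, 0 of 7 endothelial markers fell and 1 rose. Under that scaling 0 of 5 macrophage markers, 0 of 4 smooth muscle and pericyte markers and 0 of 6 fibroblast markers fell, and 3 of 8 fast-twitch markers fell and 2 rose.

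Leukocytes were represented by few genes. *S100a8*, the only neutrophil marker with a row, was at 1.42 to 12.8 in *mfn1,2* and at most 0.194 in wt, where it was listed at 0 in 13 libraries, and *Ighm*, the only B lymphocyte marker with a row, was at 0 to 0.183 in *mfn1,2* and 1.15 to 41.7 in wt. No T lymphocyte marker had a row. The satellite cell markers with a row went opposite ways: *Cdh15* rose (2.35 ± 0.376 in *mfn1,2*, 1.90 ± 0.400 in wt, log2 fold change 0.30, adjusted p = 0.00793), while *Pax7*, below the filter, was lower (0.201 ± 0.106 in *mfn1,2*, 0.413 ± 0.136 in wt, -0.79, adjusted p = 1.51e-04 without the filter). Of the others, 1 of 4 Schwann cell markers (10.5 to 57.0 in *mfn1,2*, 7.01 to 47.7 in wt) rose, and 0 of 3 adipocyte markers passed (0.176 to 5.99 in *mfn1,2*, 0 to 5.05 in wt). The Bcl2 family and caspase genes are broadly expressed across cell types, and the part of the shift in markers in the changes of *Bax*, *Bid*, *Bbc3*, *Bcl2l11*, *Bcl2l1* and the caspases was not tested.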

How the data were processed

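RNA of 28 TA muscles, 14 *mfn1,2* and 14 wt, was sequenced by the authors from stranded total RNA libraries. The submitters' processing notes list DESeq2, featureCounts, HISAT2 and Trim Galore with no version, and build mm9. The deposited table holds a signal for each gene in each library, which the authors describe as normalized with DESeq2. Of its values above 0, 99.9% were not whole (tolerance 1e-09), and lowest values fell with the exonic length of the gene (slope -1.02 on log10 axes over 262 genes listed at 0 in at least 8 libraries), as in a unit per transcript length. Its exact unit is not given in the sources used here, depth is unknown and whole reads could not be recovered, hence no count test was run and precision rests on the 14 mice per genotype. No columns were left unused, and at most 0.00813% of the values of any pair of libraries were equal.

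Libraries were brought to a common scale with median-ratio factors from the 11693 genes that were above 0 in all of them. Genes with a mean of at least 0.5 were tested on log2(value + 0.1) with limma 3.58.1 (R 4.3.3, moderated variances with a trend, genotype alone, two-sided). A fold change on this scale understates the change of low genes. *Bid* and *Bbc3* were fitted without the filter, a choice made after seeing the data, and tested by permutation of the means (scipy 1.17.1). The model was tested on simulated data. Alternatives were other scalings, pseudocounts, filters, variance models and thresholds, each library left out in turn, and the libraries that stood apart left out together.

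All members were named, and of the other cell death genes those that passed with an absolute log2 fold change over 1 or with the largest change of their list in each direction, plus genes that rose or fell in counts of 5 or fewer. Others were named after their values were seen. Some genes of the lists are not reported here and were left out of their counts. The members and the lists, motifs included, were chosen with earlier results of these data known. Promoters are 250 bases before RefSeq starts in GRCm38.p6, not the build of the table, with windows for 9 of 10 members.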

Additional observations from a re-analysis of the deposited data

How the results depend on the processing

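Depth is unknown, so the counting error of low values (*Bid*, *Bbc3*) could not be estimated, and the age of each library is not known from its column. No paired analysis was possible because the columns of the table carry no replicate numbers of the sample labels. Leaving out single libraries changed no call of a member: 3 members were higher and 0 lower each time (range 3 to 3 and 0 to 0), and 7 to 8 other cell death genes were higher and 7 to 8 lower. The log2 fold change of *Bak1* then ran from -0.0017 to 0.13 and that of *Bcl2l13* from -0.040 to 0.058, changing sign in 1 and 11 of 28 settings.

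Scaling had the widest effect. Shares of all tested genes are in brackets. Members called higher were 3 of 7 (28.2%), 6 of 7 as deposited (62.3%), 8 of 8 with the same total (79.1%) and 7 of 8 with *Actb* (65.8%). Without a filter they were 5 of 9 (25.3%). With a minimum mean of 5 (fewer members tested) 1 was higher, and with Bonferroni adjustment 1 (*Bax*). For these 2 settings the share of all genes was not taken. Other cell death genes called higher, 7 (28.2%), were 23 as deposited (62.3%), 26 with the same total (79.1%) and 19 with *Actb* (65.8%). Those called lower, 7 (24.9%), were 0 as deposited (4.95%), 0 with the same total (2.6%) and 0 with *Actb* (3.36%). With the same total without mitochondrially encoded genes 3 were lower (16.6%). With Bonferroni 4 of these genes were higher and 0 lower. The log2 fold change turned positive for *Bcl2* (0.31 as deposited, 0.69 with the same total, 0.49 with *Actb*), *Mcl1* (0.60, 1.02 and 0.80, and 0.11 without mitochondrially encoded genes), *Cycs* (0.20, 0.62 and 0.40), *Casp8* (0.21 with the same total, 0.0043 with *Actb*) and *Jun* (0.18 with the same total), which moved with the median of all genes. That of *Bcl2l13* was negative with the upper quartile (-0.058), with array weights (-0.014) and without the 5 libraries that stood apart (-0.071), where the cause was not tested.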
